A study of Caenorhabditis elegans with 82 samples.

Results

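The C-type lectin genes of Caenorhabditis elegans, the genes whose symbol is clec- followed by a number, were followed in worms kept on 2 Ochrobactrum isolates of the natural worm microbiota and on the laboratory food bacterium. The rule on the symbol found 240 of the 46748 genes in the count table, under 237 symbols, since clec-15, clec-209 and clec-249 each stood on 2 gene IDs. Whole wild-type N2 worms had been raised on Ochrobactrum MYb71, on Ochrobactrum MYb65, on both isolates together (Mix), or on Escherichia coli OP50, and RNA was sequenced at 6 stages. The stages were the larval stages L2, L3 and L4 with time points of 6, 24 and 48 h, adults Ad1 at 72 h, and adults Ad3 and Ad7. The last are labelled 3 and 7 days, which in the study is their age as adults. The hours count from the placing of young larvae on the lawn. No strain carried a mutation or transgene, and the bacteria in the lawn and the age of the worms were the factors compared. The study washed larvae off the plates and picked adults by hand. Between larvae and adults, age and the way of harvest therefore cannot be told apart. Of 82 libraries, 71 were used for the comparisons: 18 on MYb71, 17 on MYb65, 18 on Mix and 18 on OP50, with 3 libraries in each group except MYb65 at L2, which had 2. The study describes its replicates as separate repeats of the exposure, while the labels give replicate numbers alone.

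A C-type lectin carries a C-type lectin-like domain, a fold that in many animal lectins holds a calcium ion and binds sugars on cell surfaces. The nematode family is unusually large, many of its products are secreted, and single members change with bacterial infection or food, often in the intestine. A few are needed for defence against particular pathogens, whereas others act far from immunity: clec-87 and clec-88 encode core proteins of chondroitin proteoglycans, and several members belong to the germline. Most members have no assigned function, and their sugar ligands, where there are any, are unknown.

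Total counts of the 71 libraries ran between 10513060 and 74552875, with a median of 21700247. Levels are given as CPM, the counts of a gene scaled to a fixed library size, after TMM scaling of the library sizes. Every one of these libraries correlated with the other libraries of its own stage at r of at least 0.968 over genes. Replicate 3 of OP50 at L2 and replicate 3 of OP50 at L3 did not: r was 0.872 and 0.855 with their own stage, against 0.996 and 0.996 with an adult stage. Neither is among the 71. Within the 71, replicate 2 on OP50 at Ad1 had its highest r with Ad3 (0.9905, and 0.9905 with Ad1). The same held for replicate 1 on Mix at Ad1 (0.9916 with Ad3, against 0.9907 with Ad1). The intestine list of 8 genes (among them elt-2, the gut GATA factor, and ges-1, the gut esterase) had no gene at 0 in any group, and its summed level ran between 3322 and 40560 CPM across libraries. Whole worms were sequenced, so fewer cells of a type and less RNA per cell cannot be told apart.

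The family is spread unevenly over the genome. On the WBcel235 assembly, 86 members lie on chromosome V, 53 on IV, 48 on II, 36 on I, 14 on III and 3 on X. With neighbours joined across gaps of up to 20000 bases, 106 members fell into 20 runs of 3 or more, and 76 stood alone. The largest run holds 13 members between clec-40 and clec-33 (chromosome V, 16839121 to 16869840). The next holds 12 members between clec-67 and clec-78 (chromosome IV, 3922165 to 4014235). In all, 12 members share exon sequence with another gene on the same strand and 29 with a gene on the other strand. The library kit is not described as marking strand, so reads of such overlaps cannot be assigned with certainty.

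Across the 6 stages, feeding on Ochrobactrum went with higher levels of 26 lectins and lower levels of 11, and no member was called in opposite directions on different bacteria. Of the 157 members with enough counts to test, 25 differed from OP50 on MYb71 (14 higher, 11 lower), against 4.52% of all 17363 genes tested. On MYb65 29 members differed (22 higher, 7 lower), against 5.04% of all genes, and on Mix 21 differed (13 higher, 8 lower), against 2.99%. By direction, the background was 1.62% higher and 2.89% lower on MYb71, 2.08% and 2.95% on MYb65, and 0.904% and 2.09% on Mix. The members' shares were 8.92% higher and 7.01% lower on MYb71, 14% and 4.46% on MYb65, and 8.28% and 5.10% on Mix. The median log2 fold change of the tested members was 0.071 on MYb71, 0.293 on MYb65 and 0.0283 on Mix, beside medians of -0.0246, -0.0162 and -0.0556 over all genes. The calls came from edgeR's quasi-likelihood test with Benjamini-Hochberg adjustment over all genes at 0.05, averaged over stages. The 3 comparisons share the OP50 libraries, so their values are set side by side and no agreement between them is counted as evidence. Shares of all genes called on 1 lawn or more, on all 3 or on 1 only were not counted. The 26 and 11 thus have no background. Single replicate numbers weighed on the counts: without replicate 2 the MYb71 count was 12 (1.33% of all genes called). Without replicate 1 the MYb65 count was 8 (1.1%) and without replicate 2 it was 14 (2.04%). Without replicates 1 and 2 in turn the Mix count was 13 and 14 (1.07% and 1.59%). These fits hold fewer libraries, and calls over all genes fell beside those of the members. The 8 left on MYb65 without replicate 1 were clec-258, clec-48 and clec-218, lower, and clec-53, clec-54, clec-62, clec-63 and clec-67, higher. Only clec-258, clec-48, clec-53 and clec-54 were called on all 3 lawns whichever replicate number was left out. With all 82 libraries the counts were 46 on MYb71, 39 on MYb65 and 41 on Mix, of 151 tested (23, 26 and 20 of the above among them). Calls over all genes rose there as well, to 24.8%, 16.8% and 17.9%, so the larger counts are not particular to the lectins. With the 80 that leave out only the OP50 libraries resembling adults the counts were 27, 27 and 21, against 4.93%, 3.62% and 3.23% of all genes.

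**Figure D1:**
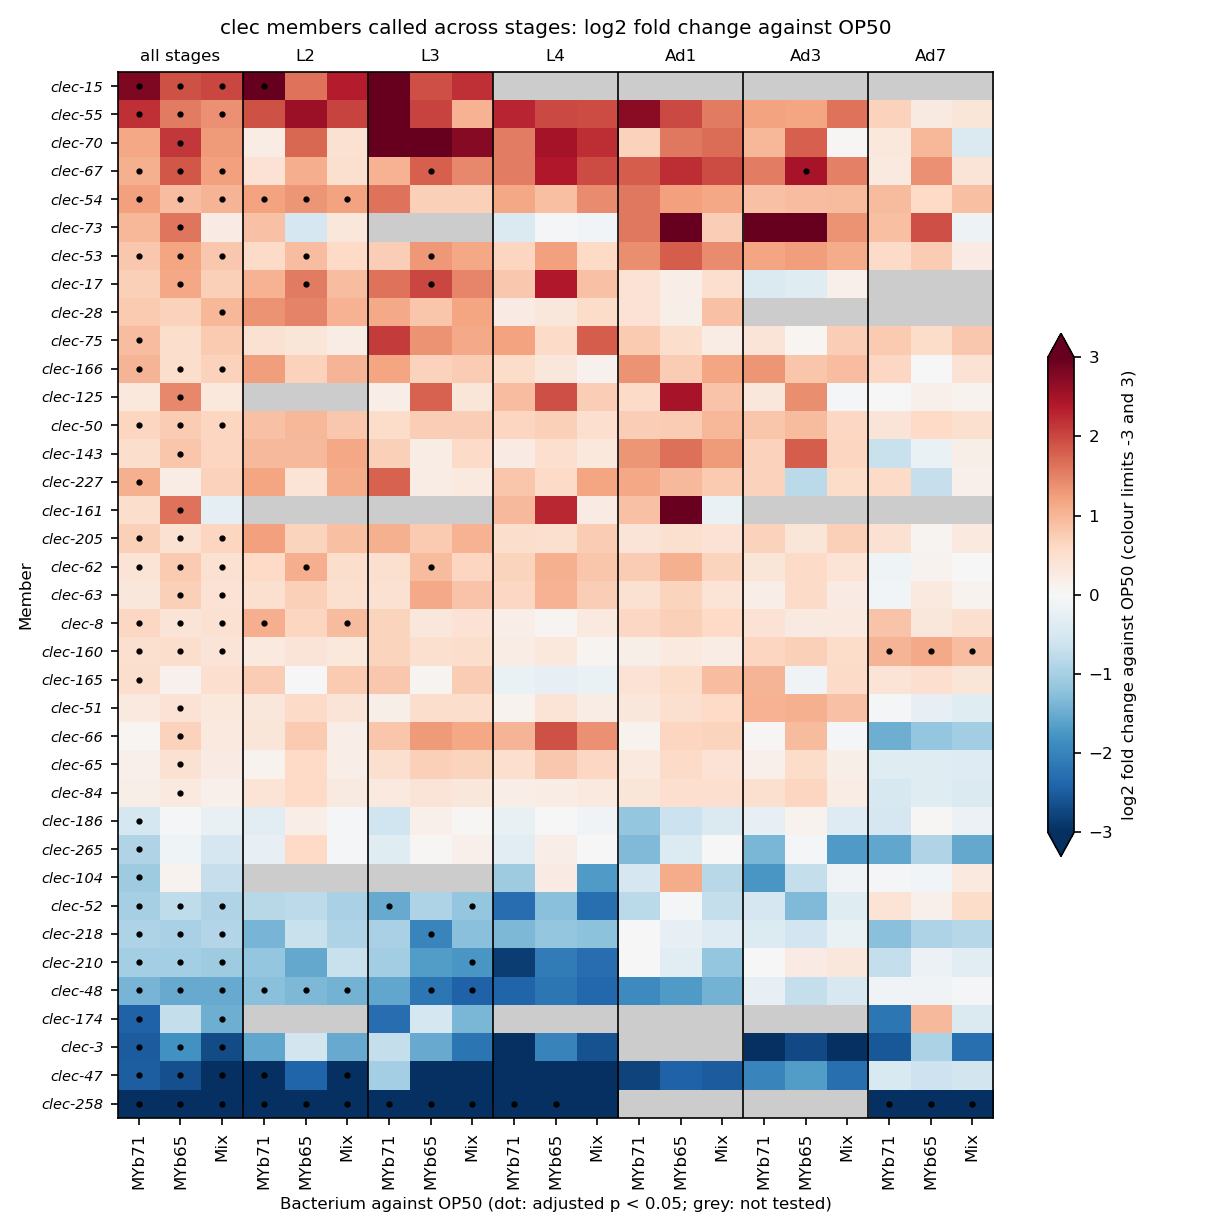
Log2 fold changes against OP50 of the 37 members called across stages on at least 1 bacterium, 1 member a row, ordered by their mean change. Columns are MYb71, MYb65 and Mix, first over all stages and then at L2 to Ad7, and red is higher and blue lower than OP50, with colours ending at -3 and 3, dots mark an adjusted p under 0.05 and grey marks members not tested at a stage. The bottom row, clec-258, is blue wherever it was tested, and 26 of the 37 members are red over all stages on the bacteria that called them.

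On all 3 Ochrobactrum lawns 7 members were lower, and the share of all genes so called was not counted. The 7 were clec-258, clec-47, clec-3, clec-48, clec-52, clec-218 and clec-210. None of them has a described function that can be stated here with certainty. The gene with the widest difference was clec-258 (WBGene00010928, chromosome V, 19788440 to 19789385, plus strand). At L3 it stood at 0.178, 0.0938 and 0.591 CPM on MYb71, at 0.154, 0.204 and 0.0879 CPM on MYb65 and at 0.332, 0.130 and 0.207 CPM on Mix, against 19.5, 56.2 and 54.6 CPM on OP50. At Ad7 it stood at 0, 0 and 0.0764 CPM on MYb71, at 0 in all 3 MYb65 libraries and at 0.0397, 0.0447 and 0 CPM on Mix, against 2.94, 31.6 and 9.80 CPM on OP50. Every Ochrobactrum library was below every OP50 library of its stage at all 6 stages on MYb71 and MYb65 and at 5 stages on Mix.

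In raw counts, clec-258 had 0 to 9 counts in a library on MYb71 (39 in all), 0 to 5 on MYb65 (26 in all) and 0 to 9 on Mix (39 in all), against 5 to 1314 on OP50 (7438 in all). No OP50 library was at 0, whereas 6 libraries on MYb71, 8 on MYb65 and 5 on Mix were. The log2 fold changes were -6.91 ± 0.475 on MYb71 (SE, edgeR adjusted p = 1.5e-18), -7.58 ± 0.511 on MYb65 (adjusted p = 5.6e-19) and -7.08 ± 0.479 on Mix (adjusted p = 6.9e-19). At Ad7 on MYb65, where every library was at 0, a floor of 3 counts over the group (0.054 CPM) was set against 14.7 CPM pooled over the OP50 libraries. For counting error alone this makes clec-258 at least 272-fold lower than the pool. Single OP50 libraries held 75 to 752 of the 975 pooled counts, so the fold against the lowest of them is smaller. The level within OP50 was not constant: clec-258 was at 1.79, 10.1 and 0.369 CPM at Ad1 and at 2.85, 15.2 and 0.229 CPM at Ad3. The low value of each triple was replicate 3.

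The gene clec-47 (chromosome V, 15175759 to 15176324) was lower by -2.48 ± 0.440 on MYb71, -2.64 ± 0.441 on MYb65 and -3.02 ± 0.443 on Mix (log2 fold change ± SE, edgeR adjusted p = 4.9e-05, 1.5e-05 and 9.9e-07). At L2 it had 0.336, 0.240 and 1.18 CPM on MYb71, 0.835 and 2.41 CPM on MYb65 and 0.487, 0.844 and 1.25 CPM on Mix, against 7.47, 10.5 and 7.55 CPM on OP50, with no overlap. At L4 it had 4.45, 9.89 and 3.5 CPM on MYb71, 11.7, 17.5 and 8.0 CPM on MYb65 and 9.24, 8.88 and 9.76 CPM on Mix, against 405, 90.3 and 17.9 CPM on OP50. A single MYb71 library stood apart at L3, where clec-47 read 37.2 CPM in replicate 4 and 0.978 and 4.22 CPM in the other libraries. In older worms the groups met: at Ad7 the values were 11.4, 8.45 and 11.1 CPM on MYb71 and 29, 9.0 and 3.58 CPM on OP50.

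A similar picture at a higher level was seen for clec-48 (chromosome V, 18158026 to 18159614). It had 17.3, 15 and 16.4 CPM on MYb71 at L2, 16.5 and 15.5 CPM on MYb65 and 15.1, 12.4 and 16.4 CPM on Mix, against 39.3, 46.4 and 34.9 CPM on OP50. At L3 it had 8.58, 17.5 and 17.6 CPM on MYb71, 10.4, 12.7 and 7.65 CPM on MYb65 and 11.1, 5.19 and 9.66 CPM on Mix, against 60.7, 48.8 and 35.2 CPM on OP50. No larval Ochrobactrum library reached the lowest OP50 library of its stage. At Ad7 clec-48 overlapped, with 15.9, 12.6 and 15.8 CPM on MYb71 and 21.2, 16.2 and 10.1 CPM on OP50. The log2 fold changes across stages were -1.38 ± 0.201, -1.52 ± 0.205 and -1.5 ± 0.202 on MYb71, MYb65 and Mix (edgeR adjusted p = 6.3e-07, 9.5e-08 and 8.8e-08).

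The low-level gene clec-3 (chromosome II, 3017468 to 3019907) changed by -2.50 on MYb71, -1.82 on MYb65 and -2.68 on Mix. At L4 it had 0.289, 0.0434 and 0.333 CPM on MYb71, 0.475, 0.277 and 0.565 CPM on MYb65 and 0.220, 0.569 and 0 CPM on Mix, against 1.32, 2.70 and 1.03 CPM on OP50. Its libraries lay below all OP50 libraries at 5 stages on MYb71, 3 on MYb65 and 5 on Mix. An exon of clec-3 overlaps the gene C41H7.2 on the other strand. For clec-258, clec-47, clec-3 and clec-48 alike, replicate 3 on OP50 was the lowest OP50 library at Ad1 and Ad3, with 0.211 and 0.457 CPM for clec-3 and 15.1 and 9.10 CPM for clec-48. What set that replicate apart was not tested.

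The members clec-52, clec-218 and clec-210 fell by smaller amounts. For clec-52 (chromosome IV, 8167164 to 8168760) the L3 levels were 11.2, 8.16 and 7.62 CPM on MYb71, 16.1, 13.5 and 13.1 CPM on MYb65 and 9.0, 13.8 and 13.3 CPM on Mix, against 33.8, 26.0 and 24.3 CPM on OP50. Its log2 fold changes across stages were -1.0, -0.77 and -0.91, and at Ad7 the order turned, with 33.6, 19.4 and 35.3 CPM on MYb71 and 27.5, 30.3 and 40.5 CPM on Mix, against 25.9, 21.4 and 18.8 CPM on OP50. The gene clec-218 changed by -0.92, -0.96 and -0.88, with 6.14, 6.11 and 7.74 CPM on MYb65 at L3, against 22.2, 34.7 and 24.4 CPM on OP50. The gene clec-210 changed by -1.02, -1.01 and -1.06 and was apart at L4, with 0.578, 0.347 and 0.50 CPM on MYb71, against 4.34, 2.25 and 3.29 CPM on OP50. The 7 genes do not form a cluster: 5 lie on chromosome V, far from one another, clec-3 is on II and clec-52 on IV.

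**Figure D2:**
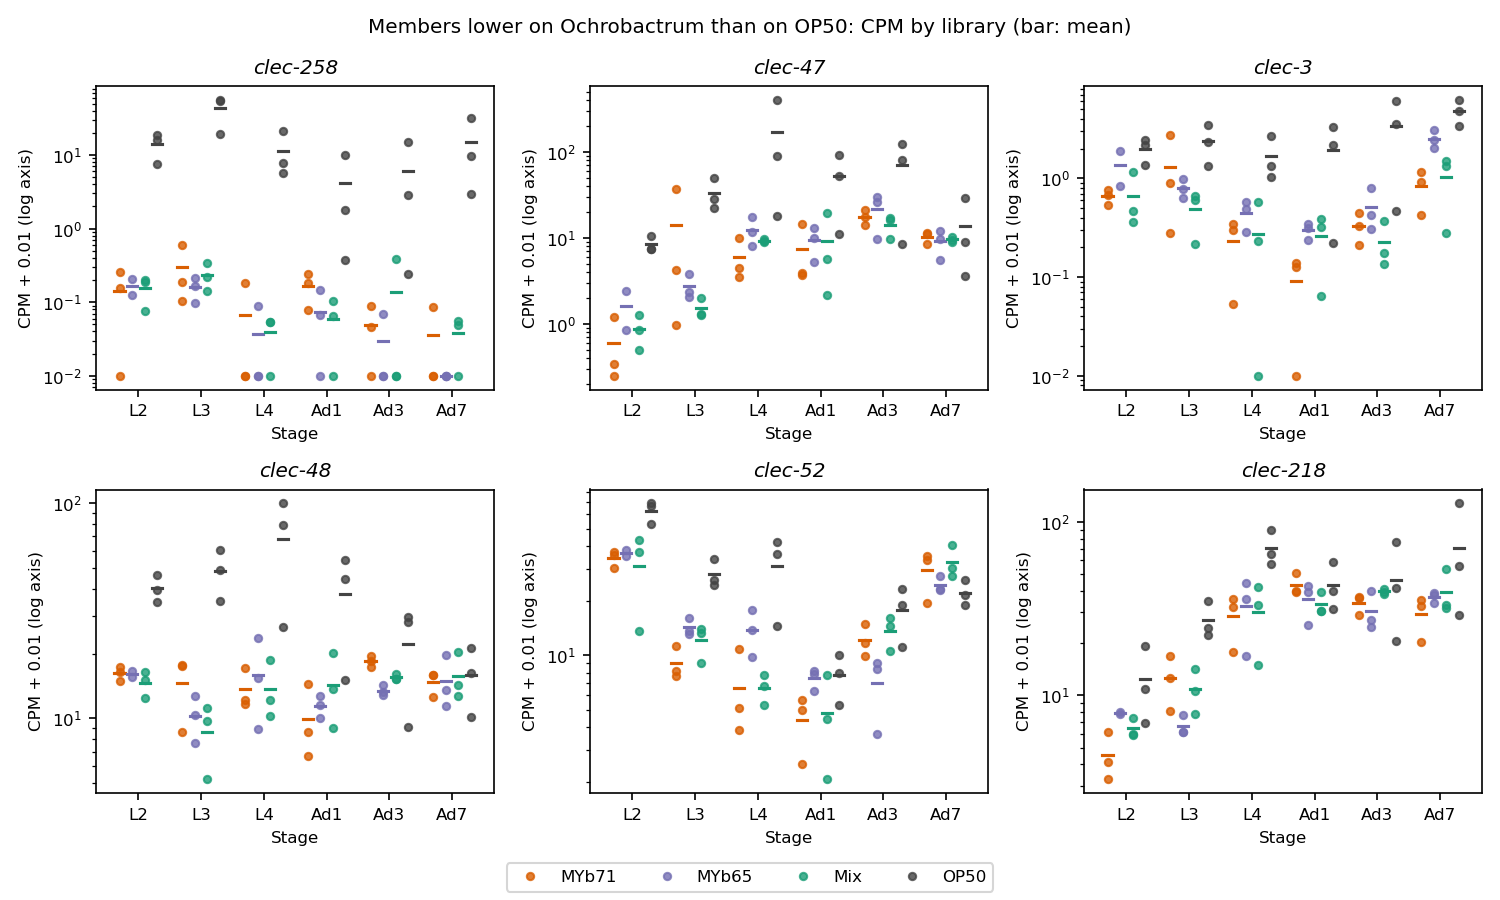
Levels of clec-258, clec-47, clec-3, clec-48, clec-52 and clec-218 as CPM + 0.01 on a log axis, 1 point a library, by stage, with MYb71, MYb65, Mix and OP50 side by side and bars at the group means. The clec-258 points on Ochrobactrum stay at or below 0.591 CPM while those on OP50 reach 56.2 CPM, and for clec-47 and clec-48 the gap seen at L2 is closed at Ad7.

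Other members were called lower on part of the lawns. The gene clec-174 changed by -2.43 on MYb71 and -1.46 on Mix, at levels of at most 4.65 CPM. It lies within the run of clec-67, whose other called members went up. On MYb71 alone clec-104 changed by -1.07, clec-265 by -0.90 and clec-186 by -0.53. Their difference between MYb71 and MYb65 did not pass the test, so these are calls on MYb71 and not differences between isolates.

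On all 3 lawns 11 members were higher, and the share of all genes so called was not counted. The 11 were clec-15, clec-50, clec-53, clec-54, clec-55, clec-62, clec-67, clec-8, clec-160, clec-166 and clec-205. These included lectins at high levels in the worm, such as clec-50. One of them was clec-53 (chromosome I, 3871474 to 3873402), which had 23.2 and 26.5 CPM on MYb65 at L2, against 11.7, 12.5 and 14.4 CPM on OP50. At L3 clec-53 had 23.9, 12.8 and 11.2 CPM on MYb71, 24.8, 24.5 and 25.3 CPM on MYb65 and 19.2, 26.0 and 22.1 CPM on Mix, against 12.5, 8.21 and 10.5 CPM on OP50. At Ad3 it had 7.63, 7.64 and 9.26 CPM on MYb71, against 4.06, 4.29 and 2.52 CPM on OP50. All libraries lay above all OP50 libraries at 5 stages on MYb71, 6 on MYb65 and 4 on Mix. Its log2 fold changes were 0.81 ± 0.131, 1.19 ± 0.133 and 0.82 ± 0.131 (edgeR adjusted p = 7.4e-06, 3.9e-10 and 6.6e-06).

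The gene clec-54 (chromosome V, 14476903 to 14479003) had 17.3, 18.8 and 18.9 CPM on MYb71 at L2, 19.4 and 22.3 CPM on MYb65 and 21.3, 15.1 and 19.7 CPM on Mix, against 7.36, 7.75 and 9.48 CPM on OP50. The excess lasted into old age, with 3.90, 3.83 and 4.73 CPM on MYb71 at Ad7, against 2.58, 2.10 and 1.66 CPM on OP50. Across stages clec-54 rose by 1.23 ± 0.149 on MYb71, 0.94 ± 0.150 on MYb65 and 1.03 ± 0.149 on Mix (edgeR adjusted p = 3.9e-09, 6.3e-06 and 6.0e-07). It lies in a run of 5 neighbours with clec-57, clec-227, clec-56 and clec-55. Among these, clec-55 rose on all 3 lawns, by 2.20, 1.57 and 1.37, and clec-227 on MYb71 by 1.08. The values of clec-55 scattered widely: at L3 they were 0.711, 8.58 and 7.42 CPM on MYb71, against 0.133, 0.195 and 0.724 CPM on OP50, and clec-55 shares exon sequence with R02D5.10 on its own strand. The pattern of clec-227 in those libraries was alike, with 9.34, 36.3 and 33.9 CPM on MYb71 at L3, against 6.70, 5.91 and 12.9 CPM on OP50.

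The gene clec-67 (chromosome IV, 3922165 to 3925039), often raised in worms meeting pathogens, was higher on MYb65 in every library at all 6 stages. At L3 it had 22, 29.2 and 14 CPM on MYb71, 38.5, 46.3 and 30.3 CPM on MYb65 and 37.4, 25.9 and 26.6 CPM on Mix, against 12.1, 6.45 and 15.3 CPM on OP50. At Ad3 it had 13.7, 10.6 and 10.6 CPM on MYb71, 32.4, 20.9 and 13.9 CPM on MYb65 and 13.8, 9.99 and 10.4 CPM on Mix, against 3.16, 6.78 and 2.38 CPM on OP50. MYb71 did not overlap OP50 at 2 stages and Mix at 4. The log2 fold changes were 1.06 ± 0.200, 1.87 ± 0.205 and 1.24 ± 0.201 (edgeR adjusted p = 0.00014, 2.4e-10 and 8.2e-06), and without replicate 2 the MYb71 value was 0.90 and no longer called. Nearby in the same run, clec-70 rose by 2.13 on MYb65, with 45.2, 28.7 and 17.7 CPM at L4, against 2.66, 9.52 and 3.35 CPM on OP50, and clec-75 rose by 0.92 on MYb71.

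A second cluster with several called members runs over clec-62, clec-63, clec-64, clec-65 and clec-66 (chromosome II, 12893062 to 12906644). On MYb65 4 of the 5 rose: clec-62 by 0.78, clec-63 by 0.72, clec-66 by 0.68 and clec-65 by 0.45. Without replicate 1 only clec-62 (0.69) and clec-63 (0.58) of them were still called on MYb65, and clec-66 (0.56) and clec-65 (0.35) were not. On Mix clec-62 and clec-63 rose, by 0.46 and 0.44, and on MYb71 clec-62 rose by 0.42. The gene clec-63 is one of the most abundant lectins of the worm. At L3 it had 1362, 1274 and 606 CPM on MYb71, 1871, 2014 and 1536 CPM on MYb65 and 1786, 1394 and 1304 CPM on Mix, against 957, 885 and 725 CPM on OP50. MYb65 and Mix lay clear of OP50 there and MYb71 did not. On MYb71 the change of clec-63 was 0.33 (edgeR adjusted p = 0.083) and was not called. At Ad7 clec-63 was at 219, 201 and 280.2 CPM on MYb71 and 317, 257 and 337 CPM on MYb65, against 271, 255 and 219 CPM on OP50.

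Its neighbour clec-62 had 28.9 and 37.3 CPM on MYb65 at L2, against 16.2, 15 and 15.4 CPM on OP50. At L4 clec-62 had 44.0, 45.4 and 36.2 CPM on MYb71, 70.9, 55.3 and 40.3 CPM on MYb65 and 49, 53.4 and 34.7 CPM on Mix, against 17.8, 32.9 and 25.8 CPM on OP50. No overlap remained at L2 or L4, whereas at Ad7 the groups mixed, with 58.7, 49.6 and 65.6 CPM on MYb65 and 60.01, 47.8 and 54.1 CPM on OP50.

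Another abundant lectin, clec-50 (chromosome V, 19752399 to 19755368, minus strand), lies near clec-258 on the chromosome and changed the other way. At L2 it had 496, 455 and 528 CPM on MYb71, 535 and 585 CPM on MYb65 and 455, 502 and 466 CPM on Mix, against 238, 276 and 309 CPM on OP50. At Ad7 it had 234, 201 and 212 CPM on MYb71, 277, 194 and 275 CPM on MYb65 and 207, 259 and 228 CPM on Mix, against 155, 162 and 178 CPM on OP50. The clec-50 groups did not overlap at 4 stages on each lawn. The log2 fold changes were 0.65 ± 0.120, 0.77 ± 0.121 and 0.65 ± 0.120 (edgeR adjusted p = 9.4e-05, 4.2e-06 and 9.5e-05).

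The remaining members of this group changed by less or stood at low levels. The gene clec-166 (chromosome IV, 1249192 to 1251342) rose by 1.01, 0.53 and 0.69 on MYb71, MYb65 and Mix, with 30.5, 28.6 and 38.4 CPM on MYb71 at L2, against 13.7, 10.3 and 17.9 CPM on OP50. The gene clec-8 rose by 0.61, 0.38 and 0.46, with 10.7, 10.002 and 10.9 CPM on MYb71 at L2, against 5.83, 4.24 and 5.17 CPM on OP50. The changes were 0.71, 0.47 and 0.65 for clec-205 and 0.47, 0.53 and 0.39 for clec-160, a gene that was also called at Ad7 alone. At Ad7 clec-160 had 29.2, 20.6 and 27.4 CPM on MYb71, 31.4, 25.4 and 26.9 CPM on MYb65 and 23.5, 26.0 and 24.1 CPM on Mix, against 10.7, 13.7 and 13.9 CPM on OP50. The gene clec-15 had fitted rises of 2.81, 1.90 and 2.0 at no more than 0.842 CPM in any library, and its second gene ID may share reads with it, so the size is uncertain.

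**Figure D3:**
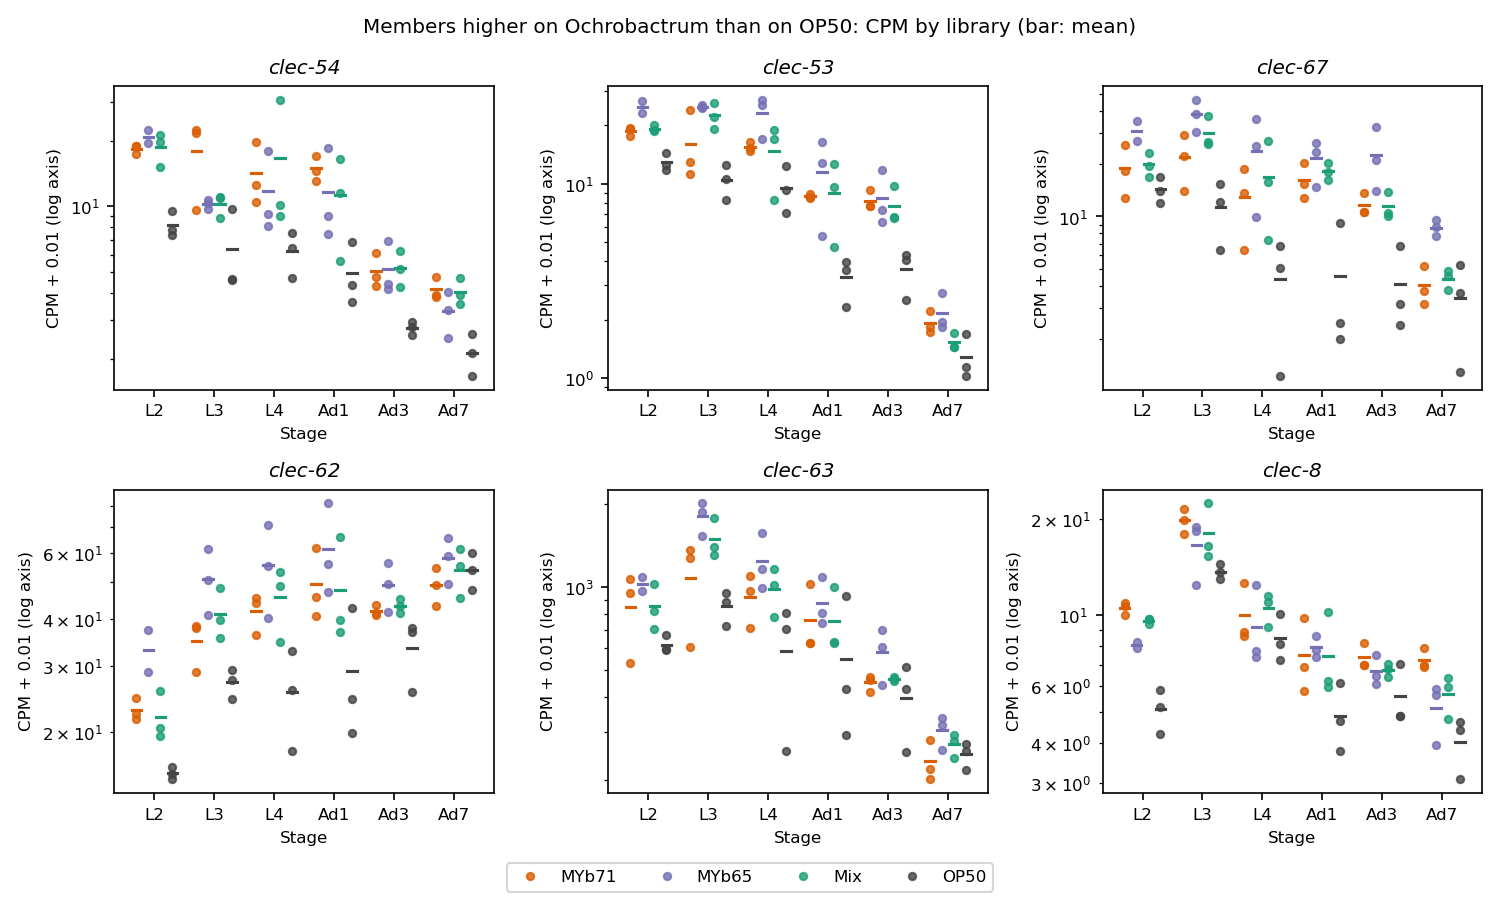
Levels of clec-54, clec-53, clec-67, clec-62, clec-63 and clec-8 as CPM + 0.01 on a log axis, 1 point a library, by stage, with MYb71, MYb65, Mix and OP50 side by side and bars at the group means. The clec-54 points on Ochrobactrum at L2 lie between 15.1 and 22.3 CPM, above the 7.36 to 9.48 CPM on OP50, and clec-67 on MYb65 lies above OP50 at all 6 stages.

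On MYb65 only, 10 members were called, all higher (share of all genes not counted), and none of them was called without replicate 1. That fit holds fewer libraries, and over all genes the calls on MYb65 fell from 875 (5.04%) to 188 (1.1%). The loss of calls was thus not limited to these members. The 10 members were clec-17, clec-51, clec-65, clec-66, clec-70, clec-73, clec-84, clec-125, clec-143 and clec-161. Without that replicate their edgeR adjusted p ran between 0.067 for clec-51 and 0.95 for clec-73 and clec-161. The change shrank most for clec-73, clec-125 and clec-161: with all libraries it was 1.61, 1.45 and 1.62, and without replicate 1 it was 0.49, 0.68 and 0.55. At Ad1 replicate 1 on MYb65 was the high library for all 3. The gene clec-73 had 26.5, 1.25 and 2.70 CPM on MYb65, against 2.09, 0.278 and 1.32 CPM on OP50. For clec-125 the levels were 16.4, 2.80 and 1.55 CPM on MYb65, against 2.09, 0.694 and 0.897 CPM on OP50, and for clec-161 they were 9.01, 0.0757 and 0.804 CPM, against 0.799, 0 and 0.422 CPM.

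The same library was high in sperm genes. The list of 8 sperm markers, among them major sperm protein genes, summed to 456 CPM in replicate 1 on MYb65 at Ad1, against 12.3 and 41.1 CPM in the other MYb65 libraries and 4.12 to 41.3 CPM on OP50. At L4 the sperm sum of replicate 1 lay between those of the other MYb65 libraries (1117 CPM, beside 1260.0 and 926 CPM), while clec-125 was again high in it (12.06 CPM, beside 1.70 and 1.13 CPM). Across stages 3 sperm markers were higher on MYb65 (gsp-3, gsp-4 and msp-10, median of the list 1.42) and none was called on MYb71 (median 0.548) or Mix (median 0.0293). The part of sperm RNA in the lectin changes was not tested.

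A gene mostly of larvae, clec-17, rose by 1.16 on MYb65, and without replicates 1 and 2 in turn the change was 0.79 and 0.99 and not called (edgeR adjusted p = 0.81 and 0.12). It had 29.8 and 29.5 CPM on MYb65 at L2, against 7.73, 8.84 and 12.9 CPM on OP50, and 14.6, 16.1 and 13.5 CPM on MYb65 at L3, against 2.92, 2.10 and 6.15 CPM on OP50. MYb71 and Mix lay above OP50 at both stages too, with 17.5, 21.9 and 19.9 CPM on MYb71 at L2, and the changes of 0.72 and 0.71 were not called. The gene was close to 0 in all groups at Ad7. Smaller rises on MYb65 were 0.84 for clec-143, 0.44 for clec-51 and 0.30 for clec-84, and these too were not called without replicate 1 or without replicate 2. Mix alone had clec-28 called, at 1.01, and MYb71 alone had clec-165 at 0.53.

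Members that earlier work on worm immunity has followed were called in part. Of 17 such members, taken from the literature on pathogen responses and from the study, 16 had enough counts and 7 were called on 1 lawn or more (clec-17, clec-47, clec-52, clec-63, clec-65, clec-67 and clec-218), beside 37 of all 157 members tested. Part of the list comes from the study of these libraries, so it is not independent evidence. No call was made for clec-4, clec-7, clec-38, clec-41, clec-42, clec-49, clec-60, clec-85 or clec-86, and clec-39 did not have enough counts. For clec-60, a gut lectin induced by several Gram-positive pathogens, the libraries of 1 group disagreed: at L4 it had 5.31, 105 and 2.56 CPM on MYb71, 2.42, 38.8 and 3.76 CPM on MYb65 and 52.5, 1.09 and 64.5 CPM on Mix, against 0.768, 28.2 and 7.33 CPM on OP50. Its change on MYb71 was 1.26 (edgeR adjusted p = 0.23). A p above the threshold does not show that these genes were unaffected.

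At single stages, where each comparison rested on 2 or 3 libraries a group, fewer members passed. At 1 stage or more, 9 members were called on MYb71, 10 on MYb65 and 11 on Mix, of 173 tested, against 1.19%, 1.3% and 1.12% of all genes. DESeq2 called 38, 32 and 36, and a single model of all 24 groups, again in edgeR, called 12, 13 and 10. Shares of all genes at 1 stage or more were not counted for these fits. By stage, DESeq2 called 16 higher and 5 lower at L2 on MYb71, 13 and 4 on MYb65 and 11 and 3 on Mix. The shares of all genes it called there were 3.29%, 1.93% and 2.05%. At L3 it called 9 higher and 4 lower on MYb71, 10 and 8 on MYb65 and 9 and 7 on Mix, against 2.86%, 2.57% and 1.94%. At L2 and L3 DESeq2 thus called more higher than lower members on every lawn, whereas by edgeR the higher calls outnumbered the lower ones at L2 on MYb65 alone. Of all genes called by DESeq2, 256 of 488, 150 of 286 and 127 of 305 were higher at L2 on MYb71, MYb65 and Mix. At L3 these were 169 of 411, 91 of 370 and 83 of 279. At Ad7 DESeq2 called 5 higher and 7 lower on MYb71, 5 and 2 on MYb65 and 5 and 5 on Mix (1.07%, 1.33% and 1.37% of all genes). At L2 on MYb71 clec-258 (-6.77), clec-47 (-3.85) and clec-48 (-1.26) were lower and clec-15 (3.27), clec-54 (1.21) and clec-8 (1.10) higher, against 0.848% of all genes called. The replicate numbers paired the libraries in that comparison. With the replicate block 11 members were called there, 8 higher and 3 lower, against 1.39% of all genes, while clec-15 was no longer called (3.29, edgeR adjusted p = 0.067). At L2 on MYb65 the calls included clec-17 (1.57), clec-54 (1.33), clec-62 (1.08), clec-258 (-6.50) and clec-48 (-1.34), against 0.66% of all genes. On Mix they were clec-54 (1.21), clec-8 (0.95), clec-258 (-6.48), clec-47 (-3.29) and clec-48 (-1.42), against 0.64%.

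At L3 the calls on MYb65 were clec-17 (2.01), clec-67 (1.80), clec-53 (1.31), clec-62 (0.95), clec-258 (-8.04), clec-206 (-2.96), clec-48 (-2.17) and clec-218 (-1.98), against 0.751% of all genes. On Mix they were clec-258 (-7.54), clec-206 (-3.80), clec-48 (-2.42), clec-210 (-1.74) and clec-52 (-1.15), against 0.584%, and on MYb71 clec-258 (-7.22) and clec-52 (-1.51), against 0.521%. The gene clec-206 was seen hardly anywhere else: at L3 it had 0.222, 0.563 and 0.328 CPM on MYb71, 0.348, 0.122 and 0.0879 CPM on MYb65 and 0.0369, 0.173 and 0.138 CPM on Mix, against 1.29, 2.10 and 1.58 CPM on OP50.

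With each stage fitted alone by edgeR, fewer calls were made at L4 and in adults than at L2. At L4 clec-258 was called on MYb71 (-7.38) and MYb65 (-8.26), and no member on Mix, against 0.0821%, 0.0505% and 0.0316% of all genes. At Ad1 no member was called by edgeR on any lawn with the stage fitted alone, against 0% of all genes. The model of all 24 groups called members there, 3 higher and 3 lower on MYb71, 3 and 2 on MYb65 and 1 and 1 on Mix (0.681%, 0.452% and 0.267% of all genes), and at L4 it called 0 higher and 5 lower on MYb71, 5 and 4 on MYb65 and 1 and 5 on Mix (0.779%, 0.702% and 0.621%). At L2 the model of all 24 groups called 1 higher and 1 lower member on each lawn. The shares of all genes it called there were 0.376% on MYb71, 0.196% on MYb65 and 0.305% on Mix. The order of the stages thus depended on the model. The gene clec-258 had too few counts for the filter at Ad1 and Ad3 and was not tested there when each stage was fitted alone. Without adjustment, in the fit of Ad1 alone, 9 members on MYb71, 12 on MYb65 and 11 on Mix of 133 tested had a p below 0.05. The calls of DESeq2 at Ad1 were 1, 2 and 0, against 0.606%, 0.339% and 0.248% of all genes. At Ad3 clec-67 was called on MYb65 (2.47, against 0.24% of all genes), and none on MYb71 (0.134%) or Mix (0.0706%), where the count of 99 members at an unadjusted p below 0.05 was 19 and 15, and that of DESeq2 calls 8 and 9 (1.36% and 1.5% of all genes). On Mix at L4 the same counts were 15 of 151 and 4 (0.341% of all genes by DESeq2). Shares of all genes at an unadjusted p below 0.05 were not counted, so these counts of members have no background beside them.

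At Ad7 clec-160, clec-85, clec-86 and clec-258 were called, against 0.404% of all genes on MYb71, 0.396% on MYb65 and 0.476% on Mix. The gene clec-160 was higher on MYb71 (1.02), MYb65 (1.14) and Mix (0.94), and clec-258 was lower on each. The model of all 24 groups called 0 higher and 1 lower on MYb71 and on Mix, and 1 and 1 on MYb65. Its shares of all genes were 0.098% on MYb71, 0.109% on Mix and 0.0545% on MYb65. It thus did not call clec-160 on MYb71 or Mix, nor clec-86 on Mix. With the replicate block 0 members were called higher on MYb71 (0.238% of all genes called). The gene clec-85, a lectin under control of the p38 immune pathway, was lower on MYb71 (-0.66) and Mix (-0.57), with 40.5, 33.9 and 42.7 CPM on MYb71, 45.9, 39.2 and 49.7 CPM on MYb65 and 41.2, 44.6 and 39.8 CPM on Mix, against 58.8, 64.8 and 61.8 CPM on OP50. The values of clec-85 did not overlap OP50 on any lawn. The gene clec-86 was higher on Mix (1.14), with 3.49, 3.26 and 3.60 CPM, against 1.80, 1.26 and 1.59 CPM on OP50, while MYb71 had 1.27, 1.57 and 1.60 CPM and MYb65 0.963, 1.35 and 1.04 CPM.

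Between adults and larvae the response to Ochrobactrum differed for 2 of 181 members tested, against 0.566% of all genes, with the mean of MYb71 and MYb65 set against OP50. The response of clec-210 was higher in adults by 1.56 ± 0.35 (log2, SE, edgeR adjusted p = 0.015) and that of clec-66 changed by -1.18 ± 0.27 (adjusted p = 0.016). At L3 clec-66 had 45.3, 22.8 and 24.4 CPM on MYb71 and 44.7, 41.9 and 44.4 CPM on MYb65, against 21.9, 17.3 and 17.2 CPM on OP50. At Ad7 clec-66 had 1.40, 2.17 and 1.83 CPM on MYb71 and 2.38, 1.72 and 2.71 CPM on MYb65, against 6.03, 5.80 and 3.11 CPM on OP50, so the order turned. For clec-210 the larval deficit narrowed, with 2.18, 2.03 and 3.45 CPM on MYb71 at Ad3, against 3.22, 3.45 and 0.961 CPM on OP50. Both calls were lost with the replicate block (adjusted p = 0.10 for clec-210 and 0.11 for clec-66). Without replicates 1, 2 and 4 in turn neither was called, and without replicate 3 clec-66 alone was.

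No lectin was called between the isolates or between Mix and the isolates. Between Mix and the mean of the single isolates edgeR called none of 157 members, against 0.00576% of all genes, with 17 members at an unadjusted p under 0.05 and none called by DESeq2. Between MYb71 and MYb65 edgeR called none, against 0.0461% of all genes, with 40 members at an unadjusted p under 0.05 and 1 called by DESeq2 (0.0921% of all genes). That gene was clec-67, at -0.81 (MYb71 over MYb65), with a DESeq2 adjusted p of 0.043. Calls made on 1 isolate alone are therefore not shown to be particular to it. Shares of all genes at an unadjusted p under 0.05 were not counted, so the 17 and 40 members have no background beside them.

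**Figure D4:**
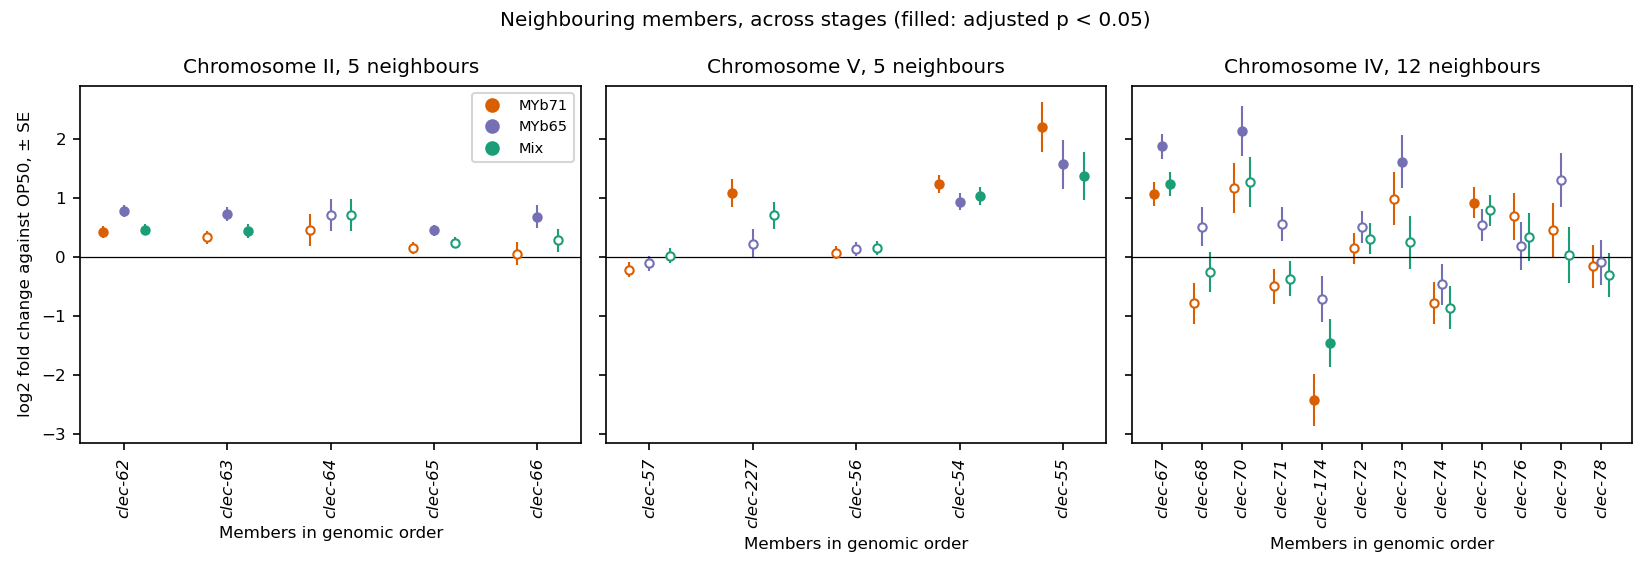
Log2 fold changes across stages on MYb71, MYb65 and Mix, each against OP50, of the members of 3 chromosomal runs in their order along the chromosome: clec-62 to clec-66 on II, clec-57 to clec-55 on V and clec-67 to clec-78 on IV. Filled points passed an adjusted p of 0.05, lines show 1 standard error, 4 of 5 members of the first run are filled on MYb65, and in the third clec-67 lies above and clec-174 below 0.

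Neighbouring members tended to have like profiles. Over the 24 group means of log2(CPM + 0.5), the median Pearson r was 0.443 for 215 pairs within a run and 0.0977 for 9329 pairs on different chromosomes. These are descriptions over groups that share stage and lawn, and reads shared between near-identical neighbours could add to them. Of the 37 called members 28 lie in a run of 2 or more and 9 stand alone, beside 76 standing alone among all 240. The largest run, of 13 members, held 1 call (clec-28 on Mix), so being in a cluster did not go with a call everywhere.

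More members differed between stages than between lawns. Of the 240 members, 139 had a mean of at least 1 CPM at some stage, 101 stayed below it throughout and 48 of these stayed below 0.1 CPM. In any of the 71 libraries, 2 members had no count. Of these 139, the peak fell at L2 in 29, L3 in 37, L4 in 33, Ad1 in 20, Ad3 in 5 and Ad7 in 15. Among the 26 lectins higher on Ochrobactrum, 22 peaked in larvae (7 at L2, 8 at L3 and 7 at L4), and among the 11 lower, 7 peaked in larvae and 4 at Ad7. Most of the 139 peaked in larvae as well, and no difference from them was tested. The 26 include clec-15, which stayed below 1 CPM and is not among the 139. The stage means take in the Ochrobactrum libraries, so changes on these lawns enter the peaks.

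Per kb of exon, the most abundant lectins changed with age. At L2 the leading members were clec-63 (646 CPM per kb), clec-50 (429) and clec-1 (419). At L3 they were clec-63 (1010.0), clec-50 (368) and clec-1 (137), and at L4 clec-87 (842), clec-63 (722) and clec-50 (340.4). At Ad1 clec-87 (1780.0), clec-63 (568) and clec-88 (367) led. In older adults clec-87, clec-88 and clec-91 held the first places, with 2841, 543 and 469 CPM per kb at Ad3 and 2630.0, 474 and 432 CPM per kb at Ad7. The scatter between libraries of a stage covers a good part of some gaps: clec-50 and clec-1 overlapped at L2, with 226 to 557 and 277 to 587 CPM per kb, whereas clec-87 at Ad3 ran between 2240.0 and 3372 and lay clear of clec-88 (480 to 599).

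The rise of clec-87, a chondroitin proteoglycan core protein, ran beside that of oocyte genes. Its mean in CPM was 6.42 (L2), 11.96 (L3), 808 (L4), 1709 (Ad1), 2727 (Ad3) and 2525 (Ad7), and it made up 49% of all lectin CPM at Ad3. The members clec-88 (1.91, 3.24, 220.0, 445, 658 and 575 CPM over the same stages) and clec-91 (1.15 CPM at L2, 1.45 at L3, 261 at Ad1, 399 at Ad3 and 368 at Ad7) had the same course. The list of 7 oocyte and eggshell genes rose over the same stages, with summed levels of 7662 to 9658 CPM on MYb65 at Ad3, against 13.9 to 15.7 CPM at L2. None of clec-87, clec-88 and clec-91 was called against OP50. On MYb71 at Ad3 clec-87 had 2150.2, 2865 and 2869.9 CPM, against 2879, 2664 and 2736 CPM on OP50. Each of the 3 genes overlaps a neighbour, which limits how exactly its level is known.

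**Figure D5:**
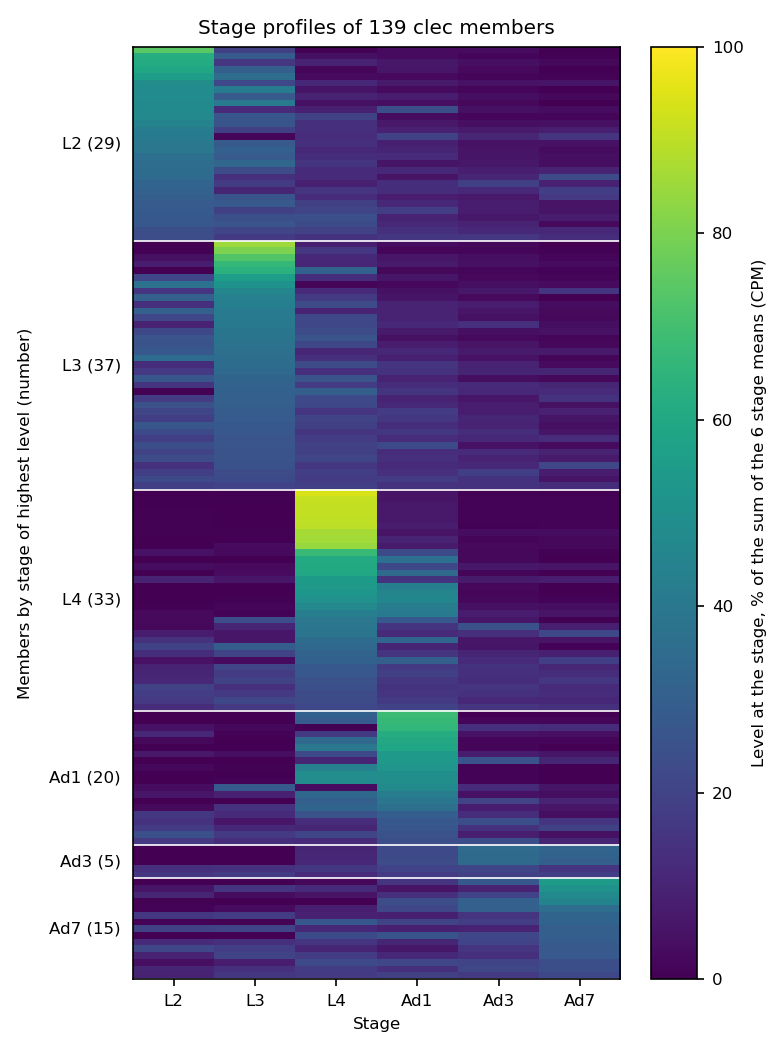
Level at each stage as a percent of the sum of the 6 stage means, for the 139 members with at least 1 CPM at some stage, 1 member a row, grouped by the stage of their highest level. Columns are L2, L3, L4, Ad1, Ad3 and Ad7 and lighter colours are larger percents, and the 9 brightest rows at L4 hold at least 75% of their sum there.

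In 9 lectins at least 75% of the summed stage means fell at L4: clec-117, clec-175, clec-123, clec-73, clec-79, clec-153, clec-260, clec-151 and clec-119. The share of all genes with such a profile was not counted. The stage mean of clec-73 was 58.25 CPM at L4 and 4.30 CPM at Ad1, and lay between 0.0420 and 0.706 CPM at the other stages. The gene clec-123 was at 42.2 CPM at L4 and at 0 in all 12 libraries of L3, and clec-117 was at 12.4 CPM and at 0. Against a floor of 3 counts over the L3 libraries (0.0101 CPM) they were at least 3960-fold and 1270-fold higher at L4. Sperm genes had the same course: msp-3, a major sperm protein gene, had a median of 131 CPM at L4, 3.05 at Ad1 and 0.164 at Ad3. Hermaphrodites make sperm at that stage, and whether these lectin transcripts come from sperm was not tested.

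In most steps between stages, a smaller or like share of lectins than of all genes was called, and at Ad7 against Ad3 a larger one (33.1%). At L3 against L2 73 of 157 members differed (42 higher, 31 lower), against 59.3% of all genes (22.8% higher, 36.5% lower). At L4 against L3 120 differed (59 higher, 61 lower, against 82.7% of all genes, 43.1% higher and 39.5% lower), and at Ad1 against L4 89 (24 higher, 65 lower, against 66.6%, 30.4% higher and 36.2% lower). At Ad3 against Ad1 87 differed (12 higher, 75 lower, against 56.4%, 23.8% higher and 32.6% lower), and at Ad7 against Ad3 52 (13 higher, 39 lower, against 19.2%, 5.81% higher and 13.4% lower). In adults the falls led: the median log2 change of the members was -0.445, -0.542 and -0.371 in the last 3 steps, beside -0.0736, -0.133 and -0.0909 over all genes.

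Single members showed how steep these steps were. At L3 against L2 clec-229 (7.38), clec-230 (7.29), clec-60 (5.32), clec-180 (4.04) and clec-78 (3.07) rose most, and clec-73 (-2.84), clec-9 (-2.15), clec-42 (-2.04), clec-223 (-1.97) and clec-266 (-1.80) fell most. The gene clec-230 had a mean of 51.97 CPM at L3, against 0.294 CPM at L2, and 5.18 CPM at L4. At L4 against L3 clec-73 (10.57), clec-219 (10.17) and clec-151 (8.90) rose beside clec-123 and clec-117, while clec-42 (-4.57), clec-17 (-4.0), clec-230 (-3.29), clec-37 (-3.15) and clec-78 (-3.09) fell. The gene clec-42, studied before with clec-4 and clec-41 in the response to Bacillus thuringiensis, had 33.4 CPM at L2, 8.48 at L3 and 0.338 at L4.

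At Ad1 against L4 clec-266 (6.89) and clec-196 (6.45) rose most, followed by clec-78 (3.72), clec-190 (2.66) and clec-222 (2.32). The gene clec-266 on the X chromosome had 68.4 CPM at Ad1, against 0.572 CPM at L4, and reached 131 CPM at Ad7. The L4 genes clec-117, clec-175, clec-73, clec-123 and clec-79 fell, by 4.49 to 4.09 on the log2 scale. At Ad3 against Ad1 the largest rises were modest, clec-52 (1.14), clec-186 (1.04), clec-190 (0.96), clec-87 (0.75) and clec-85 (0.73), and clec-219 (-5.47), clec-197 (-5.40), clec-137 (-5.25), clec-99 (-4.09) and clec-153 (-3.09) fell. At Ad7 against Ad3 clec-173 (1.51), clec-3 (1.37), clec-146 (1.15), clec-86 (1.15) and clec-52 (1.11) rose, and clec-17 (-4.27), clec-42 (-3.34), clec-230 (-3.07), clec-70 (-3.04) and clec-37 (-3.01) fell. The gene clec-146 rose to 98.9 CPM at Ad7, against 42.3 CPM at Ad3.

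Together, lectin transcripts made up a small part of the library. At L3 they took 0.339 to 0.375% of counts on MYb71, 0.374 to 0.450% on MYb65 and 0.351 to 0.367% on Mix, against 0.236 to 0.309% on OP50. At L2 the shares were 0.290 to 0.326%, 0.347 to 0.371% and 0.303 to 0.316%, against 0.241 to 0.283%. The groups did not overlap at either stage. At Ad7 they did, with 0.487 to 0.517% on MYb71, 0.495 to 0.513% on MYb65 and 0.503 to 0.537% on Mix, against 0.502 to 0.529% on OP50.

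Other gene families of worm immunity and gut markers were set beside the lectins. Among 13 lysozymes tested, the families that cut bacterial cell walls, MYb71 had lys-5 higher (1.25) and lys-10 lower (-1.60). MYb65 had lys-1 (0.51), lys-2 (0.60) and lys-8 (0.40) higher and lys-10 (-1.69), ilys-2 (-1.21) and ilys-3 (-1.75) lower, and Mix had lys-10 (-2.10), ilys-2 (-1.77) and ilys-3 (-1.90) lower. Of 22 saposin-like proteins, small membrane-permeabilizing proteins, 4 were higher on MYb71, 3 on MYb65 and 3 on Mix and none lower, and spp-5 rose on each (0.54, 0.52 and 0.44). Of 6 CUB-domain immune genes, dod-24 was lower on MYb71 (-1.28) and Mix (-0.88), dct-17 lower on MYb71 (-1.07) and dod-21 higher on MYb65 (1.55). None of 14 immune regulators and none of 12 galectins, the other large lectin family, was called.

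The intestine list had ges-1 higher on MYb71 (0.40) and MYb65 (0.38), asp-1 higher on MYb65 (0.70), and the metallothionein gene mtl-2 lower on MYb71 (-3.75), MYb65 (-3.78) and Mix (-3.29). The median of its 8 genes was 0.174, 0.179 and 0.147. Of 6 epidermis markers nlp-29 was lower on MYb71 (-0.70) and MYb65 (-0.71). None of the oocyte and eggshell, germline, body wall muscle, pharynx or neuron markers was called on any lawn. Whether these shifts have a part in those of the lectins was not tested.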

How the data were processed

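The authors trimmed reads with Trimmomatic, aligned them with STAR 2.5.3a to the WormBase WS235 genome and counted reads per gene with HTSeq, and the deposited table holds raw counts per gene for 82 libraries. Genes were matched by ID to the Ensembl 115 WBcel235 annotation (46449 of 46748 found). The comparisons used 71 libraries, leaving out replicate 3 of the 11 groups with 4 libraries, a choice taken over from an earlier analysis that matched libraries to fold changes published by the study. The study gives no reason for leaving them out. The isolate labelled MYb65 is called MYb237 in the study's text. The titles and time points of 2 MYb65 libraries disagree, and the time point decided their group. The closest of 103 replicate pairs still differed beyond sampling noise (chi-square per gene 8.45). Genes were kept by edgeR's filter (minimum count 10, total 15, share 0.7), scaled by TMM and tested with the quasi-likelihood test of edgeR 4.0.16 (limma 3.58.1, R 4.3.3), with Benjamini-Hochberg adjustment over all genes at 0.05. The script was tested on simulated counts.

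Named members were, for each bacterium across stages, up to 10 called a direction with a mean log2 CPM of at least 0, up to 3 a direction at each stage, up to 5 in the other comparisons, the 3 most abundant per kb at each stage, and members named by the study or studied before. Other members were named after their values were seen. The members and lists were chosen with earlier results of these data known. Beside the lectins, lists of lysozymes, saposin-like proteins, CUB-domain immune genes, immune regulators, galectins and markers of intestine, sperm, oocyte and eggshell, germline, epidermis, body wall muscle, pharynx and neurons were used. Alternatives were DESeq2 1.42.0, its size factors, no filter, a fold of at least 1 on the log2 scale, a replicate block, a single model of all 24 groups for the single stages, 80 or 82 libraries, leaving out the MYb65 libraries with 2 stage labels, and leaving out replicates. Replicate numbers paired the libraries (3 pairs, with every correlation over 0.1) in 5 of 36 comparisons, among them MYb71 with OP50 at L2 and L3 and MYb65 with OP50 at L4. Counting error alone is covered by the floor of 3 counts.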

Additional observations from a re-analysis of the deposited data

Results flagged for a closer look

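Of 21 group values examined for a library apart from the rest, 3 were. Chance gives about 1 in 20 for values with normal scatter, which does not hold for clec-258 near 0. Where all other libraries are at 0, any count in 1 library is flagged. The lectin share of counts in replicate 3 of OP50 at L2 was 0.549%, against 0.241 to 0.283% in the others, and this library, outside the 71, is the one that correlated best with adults. The level of clec-258 was 0.591 CPM in replicate 4 of MYb71 at L3, against 0.0938 to 0.178 CPM in the others, and 0.174 CPM in replicate 2 of MYb71 at L4, where the others were at 0. All of these clec-258 values rest on at most 9 counts. The adult response less the larval response to the mean of MYb71 and MYb65 differed by 1.56 for clec-210 and by -1.18 for clec-66 on the log2 scale.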

How the results depend on the processing

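Requiring a log2 change of at least 1 left 14, 14 and 11 members across stages on MYb71, MYb65 and Mix, 44 at L3 against L2, 59 at Ad1 against L4, 55 at Ad3 against Ad1 and 32 at Ad7 against Ad3. Shares of all genes at that limit were not counted. With all 82 libraries the counts across stages were 46 on MYb71 (23 of the 25 shared) and 41 on Mix (20 of the 21), against 24.8% and 17.9% of all genes. Between adults and larvae 21 of 182 members differed there, against 13% of all genes. At 1 stage or more, 5 members were called on MYb65 and 5 on Mix with these libraries. DESeq2 called 38, 32 and 36 members at 1 stage or more on MYb71, MYb65 and Mix and 1 between the isolates. No filter gave 16 on MYb71. The 80 libraries without the OP50 libraries that resemble adults gave 18 on MYb71 and 18 on MYb65, and 1 between the isolates (0.122% of all genes). Shares of all genes at 1 stage or more were counted for the main fit alone. With the replicate block no member differed between adults and larvae, and 35, 29 and 22 were called across stages (6.82%, 4.46% and 2.6% of all genes). Where the numbers paired the libraries, the block moved calls at L2 on MYb71 only. Leaving out replicates gave 12 to 37, 8 to 33 and 13 to 21 across stages on MYb71, MYb65 and Mix. Shares of all genes ran 1.31% to 8.01%, 1.1% to 7.04% and 1.07% to 2.81% in those fits. At 1 stage or more, leaving out replicates gave 6 to 16, 8 to 16 and 8 to 16, with 14 on MYb71 without replicate 1 of MYb71 at L3, 16 without replicate 4 of OP50 at L2, and 16 on MYb65 without replicate 4 of MYb71 at L3. It gave 62 to 69 at L3 against L2, 74 to 97 at Ad1 against L4, 73 to 86 at Ad3 against Ad1 and 36 to 46 at Ad7 against Ad3, 0 for Mix against the isolates, 0 to 2 between isolates and 0 to 1 between adults and larvae. Shares of all genes in the 4 steps between stages ran 49.3% to 57.3%, 52% to 67.1%, 44.4% to 51.7% and 9.56% to 16.6%. For Mix against the isolates they ran 0% to 0.0115%, between isolates 0.0175% to 0.132% and between adults and larvae 0.0379% to 0.617%. The fall of clec-266 at L3 against L2 (-1.80) became a rise of 1.02 with all 82 libraries, which include the OP50 libraries at L2 and L3 that resemble adults. Of the single members' values, 1154 of those under other settings kept direction and call, 106 kept direction only, 7 newly passed and 1 reversed. Of those with a replicate or library left out, 732 kept direction and call, 295 kept direction only and 3 newly passed. The calls of clec-258, clec-48, clec-53 and clec-54 held on all 3 lawns under the 11 alternatives other than the fold limit. At a log2 change of at least 1, clec-53 (0.81 on MYb71, 0.82 on Mix) and clec-54 (0.94 on MYb65) would not pass there. The causes of the other shifts were not tested. Depth limits clec-258 on Ochrobactrum and clec-15, which rest on few counts.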
